A study of Rattus norvegicus with 23 samples.

Results

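The pyruvate dehydrogenase complex and the enzymes that switch it off and on were followed through the gastrocnemius transcriptome of rats fed chow or a high fat, high sucrose (HFHS) diet. The genes are the 4 kinases Pdk1, Pdk2, Pdk3 and Pdk4, the phosphatases Pdp1 and Pdp2, and the subunit genes Pdha1, Pdhb, Dlat and Pdhx. They were chosen by symbol, with earlier results of these data known, and all 10 were found, each on 1 entry, among the 18903 named genes of the count table. Dld, the subunit shared with other complexes, and Pdpr, the regulatory subunit of the phosphatase, are reported beside them.

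The complex sits in the mitochondrial matrix and turns pyruvate from glycolysis into acetyl-CoA, the step that commits carbohydrate carbon to oxidation. Pdha1 and Pdhb form the E1 part that takes the carboxyl group off pyruvate, Dlat is the E2 core that passes the acetyl group to coenzyme A on a lipoyl arm, Dld is the E3 enzyme that reoxidizes that arm, and Pdhx holds E3 on the core. The kinases phosphorylate the E1 alpha subunit and stop the complex, and the phosphatases take the phosphate off again. In skeletal muscle, Pdk4 is known as the kinase whose transcript rises in fasting and with a high supply of fatty acids, whereas Pdk2 is regarded as the constant kinase of the tissue. These levels are of RNA, so the phosphorylation of the complex and its activity were not measured here.

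RNA was sequenced from 1 library per Wistar rat after 14 weeks on a diet begun at 4 weeks of age, in 4 groups: Male Chow (n = 6), Male HFHS (n = 6), Female HFHS (n = 6) and Female Chow (n = 5). All rats were housed at thermoneutrality and fasted shortly before sacrifice, and the HFHS diet held more fat and sucrose and less carbohydrate than the chow. The ovaries of most females of the study were removed during the diet period and estradiol was supplied with their water, while the rest had sham surgery. Which female had which surgery is not in the labels, so sex cannot be told apart from surgery and hormone replacement in any comparison of males with females. The comparisons ask whether the transcripts differed by diet within each sex, by diet averaged over the sexes, by sex averaged over the diets, or in their diet response between the sexes.

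Total counts per rat lay between 21152241 and 51305339. For 3 females the sample title and the column code name opposite diets, and the code was used, which puts rat 205 on chow and rats 224 and 225 on HFHS. In a heat map of the study the male diets appear to be headed the other way round from the columns, so each direction by diet in males rests on the column codes. By these codes, Cyp1a1 had 0 counts in the 5 Female Chow rats and 0.42 to 3.49 CPM in the 6 Female HFHS rats. The codes, unlike the titles, thus part the females by this 1 gene. In males it had at most 1 count per Male Chow rat and 0.14 to 2.21 CPM in Male HFHS rats, the same direction as in females. Fibre markers of skeletal muscle were abundant in all 23 rats, with summed levels of 196025 to 301776 CPM (counts scaled to a common library size), while 2 libraries stood apart by the markers of slow fibres. Summed over 8 such markers, the level was 578 CPM in Female Chow rat 205 and 824 CPM in Male Chow rat 111, against 3605 to 24951 CPM in the other 21. Markers of hepatocytes differed with sex, with summed levels of 310.5 to 599.7 CPM in Female Chow, 46.2 to 516 CPM in Female HFHS, 39.5 to 83.7 CPM in Male Chow and 38.3 to 61.0 CPM in Male HFHS rats, and 25 of 25 tested were called lower in males. All 6 tested endothelial markers were called higher in males, with summed levels of 179.8 to 263 CPM in the females and 249 to 333 CPM in the males. Of all tested genes, 8.97% were called by sex. The hepatocyte marker level goes largely with sex (median log2 difference -4.70), so a fit with it as a covariate cannot tell the 2 apart. A call by sex that is lost in that fit therefore says nothing on the part of these markers. By diet averaged over the sexes, all 25 tested hepatocyte markers had fitted values below 0 (median -1.55), and 0 were called. The level thus goes in part with diet too. The part of these markers in the results by sex was not tested beyond the alternatives given in the closing section.

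In the rat genome rn6, Pdk1 (ENSRNOG00000001517) lies at chr3:58530870-58558027 on the plus strand and Pdhx (ENSRNOG00000006947) at chr3:92909725-92969050 on the minus strand. Pdk2 (ENSRNOG00000004172) lies at chr10:82839153-82852660, Pdk4 (ENSRNOG00000009565) at chr4:30546664-30556814, Pdp1 (ENSRNOG00000016180) at chr5:25577451-25584288, Pdp2 (ENSRNOG00000012343) at chr19:597427-601469 and Dlat (ENSRNOG00000009994) at chr8:55062551-55087832, all on the minus strand. Pdhb (ENSRNOG00000007895) lies at chr15:18539210-18546854 on the plus strand. Pdk3 (ENSRNOG00000012513) at chrX:62836131-62903554 on the minus strand and Pdha1 (ENSRNOG00000025383) at chrX:37329779-37343410 on the plus strand are the X-linked genes of the group. The 3' end of Pdha1 overlaps the gene AABR07038021.1 at chrX:37342608-37353156 on the opposite strand, which averaged 41.2 CPM (36.1 to 49.2), and it is not stated whether the counting used the strand of reads. Overlaps of the other genes of the group with annotated genes are not given here.

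Promoter sequences of 8 of the 10 genes were matched by symbol in RefSeq (assembly GRCr8). The 250 bases before the start site are printed for Pdk4, for Angptl4, the gene that varied most like it from rat to rat, and for Pdha1, the gene that varied least of the 10. Capitals mark matches, on either strand, to any of 5 motifs that are spelled out with their shares after the sequences. The Pdk4 window is chr4:34568330-34568579 on the minus strand, the Angptl4 window chr7:15258682-15258931 on the minus strand and the Pdha1 window chrX:38508908-38509157 on the plus strand, all in GRCr8.
Pdk4: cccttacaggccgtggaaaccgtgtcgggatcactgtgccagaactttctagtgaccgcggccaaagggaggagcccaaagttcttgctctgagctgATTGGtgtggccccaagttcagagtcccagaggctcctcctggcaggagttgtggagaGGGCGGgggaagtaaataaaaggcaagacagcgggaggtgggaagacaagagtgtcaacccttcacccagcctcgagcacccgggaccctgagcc
Angptl4: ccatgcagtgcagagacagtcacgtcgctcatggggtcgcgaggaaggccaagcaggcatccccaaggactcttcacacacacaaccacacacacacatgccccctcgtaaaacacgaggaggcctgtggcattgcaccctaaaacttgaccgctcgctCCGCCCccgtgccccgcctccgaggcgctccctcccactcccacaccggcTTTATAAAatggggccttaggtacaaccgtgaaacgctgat
Pdha1: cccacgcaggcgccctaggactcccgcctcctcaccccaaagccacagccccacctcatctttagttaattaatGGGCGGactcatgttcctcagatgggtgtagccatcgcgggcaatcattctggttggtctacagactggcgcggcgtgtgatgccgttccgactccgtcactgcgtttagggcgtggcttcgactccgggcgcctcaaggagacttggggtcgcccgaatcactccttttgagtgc

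The promoter motif read by nuclear factor Y, CCAAT, was found in 34.02% of the 33469 promoter windows of the same length in the table, and it occurred once in the window of Pdk4. The motif bound by Sp1, with the letters GGGCGG, was found in 30.5% of all windows and occurred once in each of the 3 printed windows. The motif of the basal transcription machinery, with the letters TATAAA, was found in 12.9% of all windows. It matched the Angptl4 window on both strands, as 2 overlapping matches, and none of the 8 matched windows, which are those of the 4 kinases and of Pdha1, Pdhb, Dlat and Pdhx. For FoxO factors, which are known regulators of Pdk4, the core with the letters GTAAACA was found in 3.21% of all windows, and among the 8 genes in that of Pdhb. For nuclear receptors, a family that holds the PPAR factors, the motif with the letters AGGTCA was found in 14.1% of all windows, and among the 8 genes in that of Dlat. The GC content was 59.2% in the Pdk4 window, 60.0% in the other 2 and 51.2% at the median of all windows.

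No transcript of the complex, its kinases or its phosphatases passed the threshold (an adjusted p of 0.05 over 13365 tested genes) in any of the 5 comparisons. By diet in females 0 of 10 passed, where 0.015% of all tested genes were called, and by diet in males 0 of 10 passed, where 0.0224% were called. By diet averaged over the sexes 0 of 10 passed, with 0.0524% of all genes called, and for the interaction of sex and diet 0 of 10 passed, with 0% called. By sex averaged over the diets 0 of 10 passed, where 8.97% of all tested genes were called. At an unadjusted p under 0.05, the edgeR fit gave 0 of the 10 by diet in either sex alone and for the interaction, 1 by diet averaged over the sexes (Pdp1) and 2 by sex (Dlat and Pdk3), against 6.96%, 7.91%, 4.88%, 9.77% and 23.5% of all genes in the same order. With so few genes called by diet, the counts by diet do not set the 10 apart from the rest. Groups overlapped for each of the 10 genes, and for Dld and Pdpr, in both diet comparisons and in both comparisons of sex on one diet. The share of all tested genes with such overlap is not given here, so it does not set these genes apart. The plot of levels by rat shows the overlap gene by gene.

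**Figure D1:**
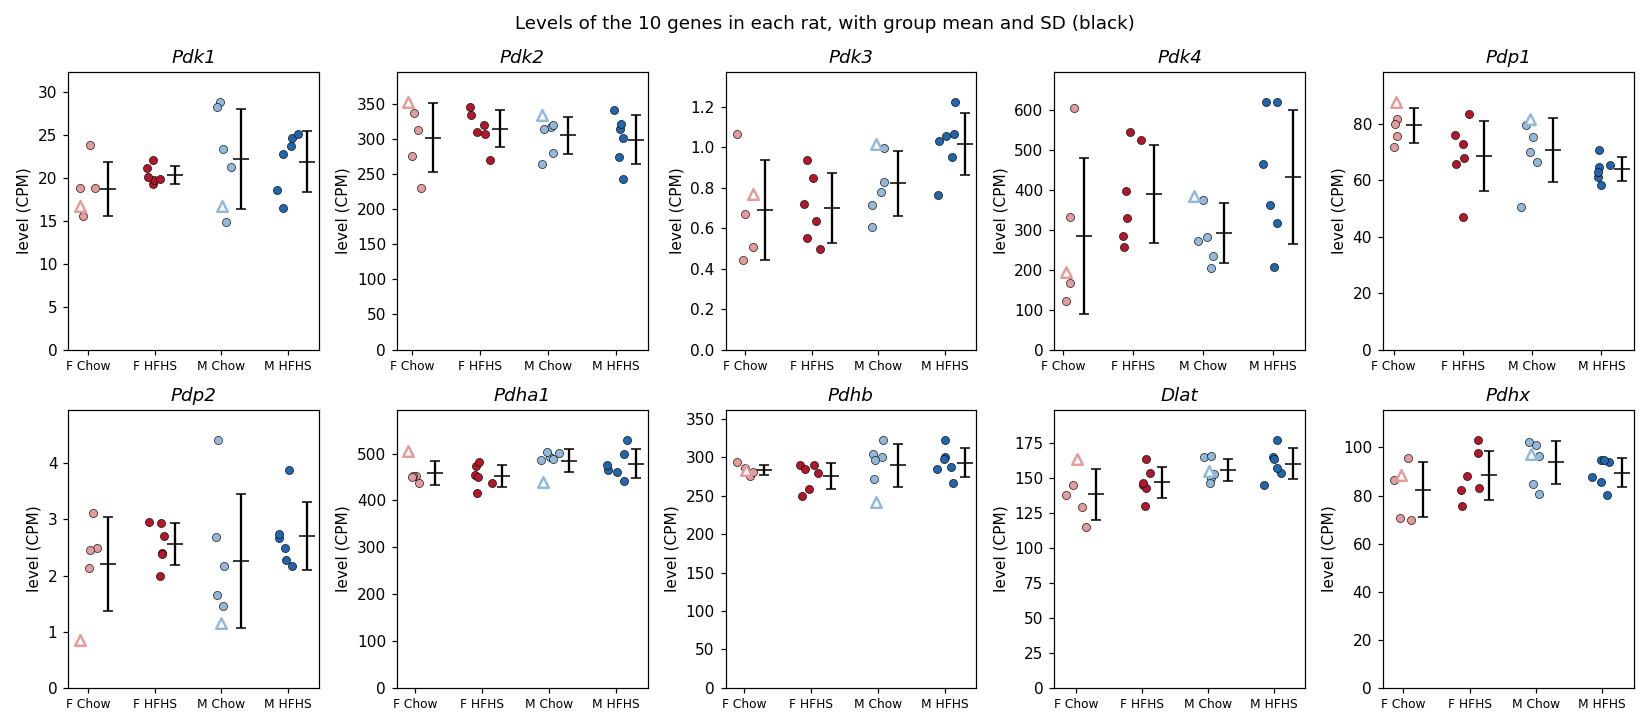
Levels of the 10 genes in CPM (y axis, from 0) in each of the 23 rats (points) by group (F, female; M, male), with the group mean and SD in black beside them; open triangles are rats 205 and 111, with few slow fibre counts. Pdk4 ran from 123 to 620.3 CPM and Pdha1 from 416 to 529 CPM, and the diet groups of each sex and the sexes on each diet overlapped for each gene.

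Pdk4 had the widest range among the kinases and the highest fitted diet difference in each sex. In the 5 Female Chow rats its level was 123, 165, 194, 332 and 604 CPM, with a mean of 284 ± 195 CPM (SD). In the 6 Female HFHS rats it ran from 256 CPM through a median of 363 CPM to 545 CPM, with a mean of 389 ± 122 CPM. Rat 214 was the highest of all females although it was fed chow, so the groups overlapped completely at the upper end. The fitted difference in females was 0.46 on the log2 scale (SE 0.36, 95% interval -0.30 to 1.21, adjusted p = 0.825).

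In the 6 Male Chow rats Pdk4 ran from 203 CPM through a median of 276 CPM to 385 CPM (291 ± 74.0 CPM, SD). In the 6 Male HFHS rats it ran from 207 CPM through a median of 413 CPM to 620.3 CPM (432 ± 168 CPM, SD). Of the Male HFHS rats, 3 of 6 exceeded the highest Male Chow rat and 1 lay near the lowest. The fitted difference in males was 0.57 (SE 0.34, interval -0.15 to 1.28, adjusted p = 0.717).

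Averaged over the sexes, Pdk4 was 1.43-fold higher on the HFHS diet, with a 95% interval of 0.994-fold to 2.04-fold, an unadjusted p of 0.0533 and an adjusted p of 0.514 in edgeR. The diet differences of the sexes differed by 0.11 on the log2 scale (SE 0.50, interval -0.92 to 1.14, adjusted p = 0.997), so an interaction of up to 2.21-fold was within the interval. Males and females differed by 0.09 (SE 0.25, interval -0.42 to 0.61, adjusted p = 0.859). The value in females depended on single rats and on the labels: it was 0.94 without rat 214, 0.27 without rat 213 and -0.04 with the diets of the sample titles. With rats 205 and 111 both left out it was 0.35 in females, 0.67 in males and 0.51 on average.

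Pdk2, the kinase present throughout the body, lay between 231 and 353 CPM over all rats, with group means of 299 to 315 CPM. Its fitted differences were 0.06 by diet in females (interval -0.14 to 0.26), -0.03 by diet in males (-0.22 to 0.16) and -0.03 by sex (-0.17 to 0.11), with adjusted p values of 0.939, 0.964 and 0.843. These intervals leave room for diet differences of at most 1.20-fold upward in females. Pdk1, a kinase known as a target of the hypoxia factor HIF-1, averaged 18.7 ± 3.15 CPM in Female Chow, 20.3 ± 1.06 CPM in Female HFHS, 22.2 ± 5.79 CPM in Male Chow and 21.9 ± 3.52 CPM in Male HFHS rats (SD). Its difference by sex was 0.18 (SE 0.10, interval -0.03 to 0.39, adjusted p = 0.306), and by diet it was 0.12 in females and -0.02 in males, with adjusted p values of 0.900 and 0.984.

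Pdk3, the X-linked kinase, was counted only 10 to 57 times per rat. Its level was 0.692 ± 0.247 CPM in Female Chow, 0.700 ± 0.172 CPM in Female HFHS, 0.824 ± 0.160 CPM in Male Chow and 1.02 ± 0.152 CPM in Male HFHS rats (SD). Of the Male HFHS rats, 5 of 6 exceeded the highest Female HFHS rat, whereas on chow the ranges were nested. The difference by sex was 0.38 (SE 0.16, interval 0.06 to 0.70, adjusted p = 0.130) and by diet in males 0.30 (SE 0.21, adjusted p = 0.760). Without Female Chow rat 213, the highest female, the difference by sex was 0.49 and passed the threshold with an adjusted p of 0.0436.

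Among the phosphatases, Pdp1, the form stimulated by calcium in muscle, had the only unadjusted p under 0.05 by diet among the 10 genes. It was at 71.9, 75.9, 80.1, 81.9 and 88.0 CPM in the 5 Female Chow rats and ran from 47.0 CPM through a median of 70.3 CPM to 83.5 CPM in the Female HFHS rats. Male Chow rats ran from 50.6 CPM through 72.7 CPM to 81.9 CPM, and Male HFHS rats from 58.5 CPM through 64.0 CPM to 70.7 CPM. Of the Female HFHS rats, 3 of 6 lay below the lowest Female Chow rat, while the Male HFHS rats all lay within the range of the Male Chow rats. Averaged over the sexes the difference by diet was -0.18 (SE 0.08, interval -0.34 to -0.01, unadjusted p = 0.0347, adjusted p = 0.476), with -0.21 in females and -0.14 in males. By sex it was -0.14 (SE 0.08, adjusted p = 0.300).

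Pdp2, the phosphatase that does not depend on calcium, was counted 30 to 165 times per rat and varied 5.16-fold between its lowest and highest rat. The lowest values of the females and of the males were those of the libraries with few slow fibre counts, 0.857 CPM in Female Chow rat 205 and 1.15 CPM in Male Chow rat 111. Its difference by diet averaged over the sexes was 0.23 (SE 0.20, interval -0.17 to 0.64, adjusted p = 0.725), and 0.14 without rat 205. Pdpr, which lowers the activity of the phosphatase, had 0.20 by diet averaged over the sexes (SE 0.09, interval 0.01 to 0.39, adjusted p = 0.482) and 0.24 by sex (SE 0.09, interval 0.05 to 0.42, adjusted p = 0.101). Its group means were 11.9 ± 2.87 CPM in Female Chow, 14.2 ± 2.02 CPM in Female HFHS, 14.6 ± 0.683 CPM in Male Chow and 16.03 ± 2.47 CPM in Male HFHS rats (SD). Without Female Chow rat 205 the difference by sex was 0.30 with an adjusted p of 0.0242, and it also passed without Female HFHS rat 201 (0.0479).

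The subunit genes differed little by diet. For Pdha1, which carries the phosphorylation sites, the interval by diet averaged over the sexes ran from 0.931-fold to 1.04-fold, and for Pdhb, the other E1 chain, from 0.930-fold to 1.06-fold. For Dlat it ran from 0.972-fold to 1.13-fold, for Pdhx from 0.927-fold to 1.11-fold and for Dld from 0.936-fold to 1.05-fold. All 5 intervals included no change, and the adjusted p values lay between 0.701 and 0.946. The plot of differences sets these narrow intervals beside those of the kinases.

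**Figure D2:**
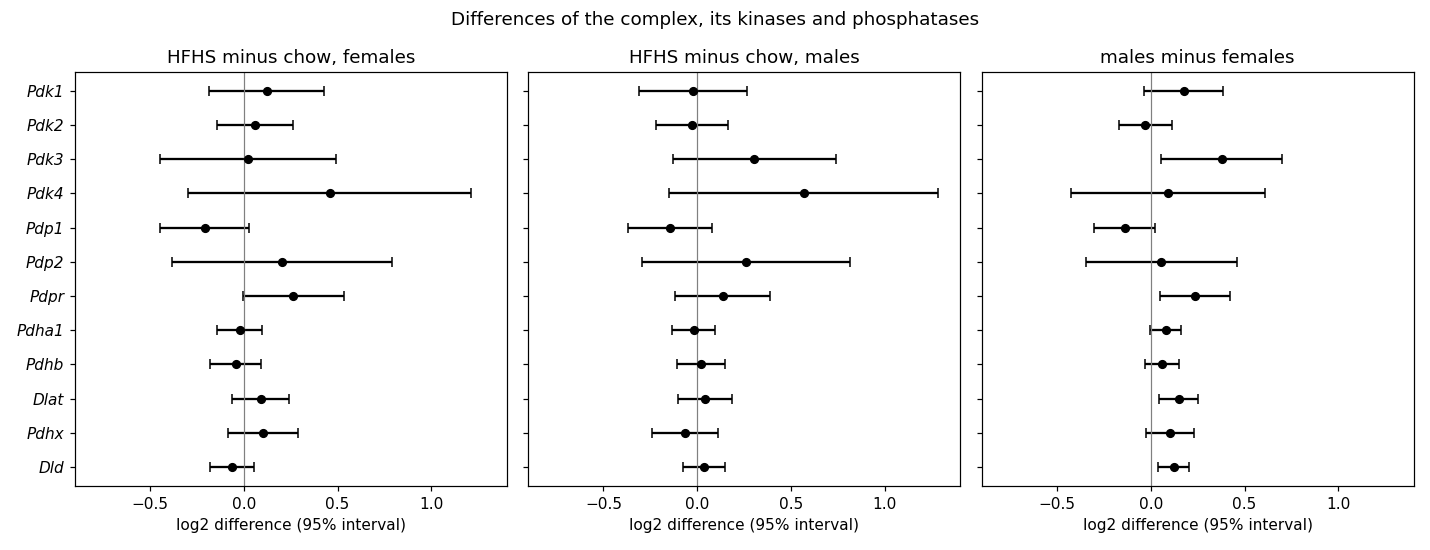
Fitted log2 differences (x axis) with 95% intervals for the 10 genes, Dld and Pdpr (y axis), by diet in females (left), by diet in males (middle) and by sex averaged over the diets (right). The subunit genes have narrow intervals near 0, that of Pdk4 in females runs from -0.30 to 1.21, and no point passed the adjusted threshold.

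By sex, all 5 subunit genes had fitted values above 0, with a median of 0.10 against one of about 0 over all tested genes, and 0 of 5 passed. Dlat, the E2 core, came closest of the 10. It was at 115, 129, 138, 145 and 164 CPM in the Female Chow rats, where rat 205 was the highest, and ran from 131 CPM through 146.0 CPM to 164 CPM in Female HFHS rats. It ran from 147 CPM through 154 CPM to 166 CPM in Male Chow and from 145 CPM through 161 CPM to 178 CPM in Male HFHS rats. Of the 12 males, 4 lay above the highest female, and the sexes overlapped on both diets. The difference was 0.15 (SE 0.05, interval 0.04 to 0.25, unadjusted p = 0.00792, adjusted p = 0.0690), a fold of 1.11.

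Dlat passed the threshold without Female Chow rat 205 (0.18, adjusted p = 0.0148), without Female HFHS rat 201 or without Male Chow rat 116, and over its leave-one-out fits the adjusted p ran from 0.0148 to 0.121. It also passed in DESeq2 (adjusted p = 0.0327), in limma-voom with quality weights (0.0353), without the 3 females whose labels conflict (0.0331) and without rats 205 and 111 (0.0176). With the hepatocyte marker level, which goes largely with sex, as a covariate it was 0.25 with an adjusted p of 0.286. Dld had 0.12 by sex (SE 0.04, interval 0.04 to 0.21, adjusted p = 0.0533), with 5 of 6 Male HFHS rats above the highest Female HFHS rat. It passed without Female HFHS rat 201 or 225 and without Male Chow rat 111 or 115, and in DESeq2 with an adjusted p of 0.0160, and with the hepatocyte covariate it was 0.13 (adjusted p = 0.544).

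Pdha1 averaged 459 ± 26.1 CPM in Female Chow, 452 ± 23.9 CPM in Female HFHS, 485 ± 23.9 CPM in Male Chow and 478 ± 31.1 CPM in Male HFHS rats (SD), a difference by sex of 0.08 (SE 0.04, interval -0.0016 to 0.16, adjusted p = 0.222). Rat 205 had the highest value of all females, 504.6 CPM, and rat 111 the lowest of all males, 438 CPM. Pdhb had 0.06 by sex (SE 0.05, adjusted p = 0.453) with levels of 242 to 323 CPM over all rats, and Pdhx had 0.10 (SE 0.06, adjusted p = 0.327) with levels of 70.0 to 103 CPM. For the interaction of sex and diet, the fitted values of the 10 genes ran from -0.17 (Pdhx) to 0.28 (Pdk3), with adjusted p values of 0.983 or more.

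The genes differed in how much rats of a group varied. The SD of the log2 level within groups was 0.081 for Pdha1, 0.084 for Dld, 0.10 for Pdhb, 0.12 for Dlat and 0.15 for Pdhx, against a median of 0.14 over the 6705 tested genes with a mean above 10 CPM. Of those genes, 5.91% had a smaller SD than Pdha1. For Pdk4 the SD was 0.60, larger than in 98.4% of the same genes, and its highest rat stood 5.06-fold above its lowest. Pdk2 had an SD of 0.17, Pdp1 0.21, Pdpr 0.23 and Pdk1 0.26. For Pdp2 (0.51) and Pdk3 (0.32) counting error alone gives a coefficient of variation of about 10.4% and 18.0%, whereas for Pdk4 it gives 0.875%. This is a description of these libraries, with no test between genes.

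**Figure D3:**
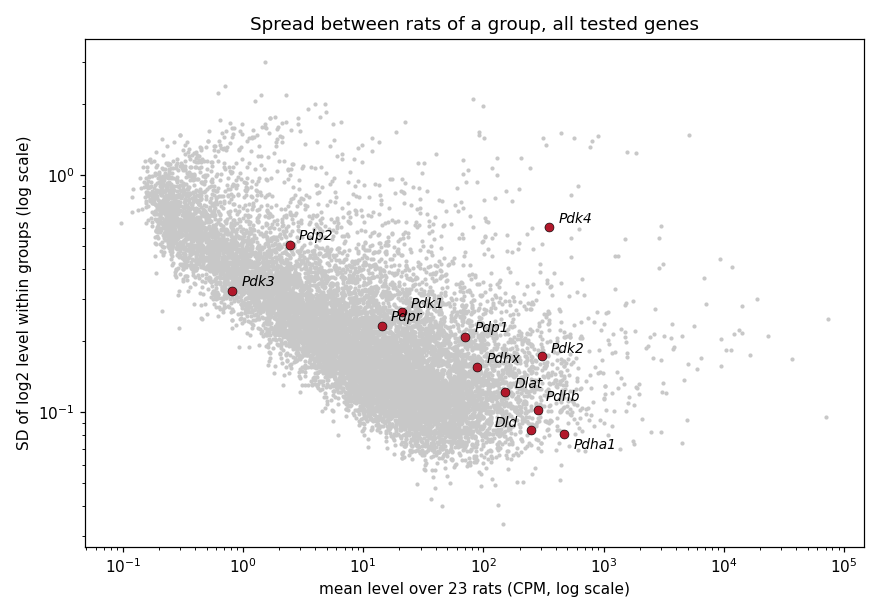
SD of the log2 level within groups (y axis, log scale) against the mean level in CPM (x axis, log scale) for all 13365 tested genes (grey), with the 10 genes, Dld and Pdpr in red. Pdk4 lies far above genes of like level with an SD of 0.60, while Pdha1 and Dld lie near the lower edge at 0.081 and 0.084.

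Whether the other genes moved with Pdk4 from rat to rat was asked over the 23 rats. None of the 9 correlations passed after adjustment over the 9 pairs. The largest Pearson r was 0.34 with Pdp2 (permutation p = 0.108, adjusted p = 0.468), with a Spearman rho of 0.41 (permutation p = 0.0517, adjusted p = 0.465) and an r of 0.41 without rats 213 and 228, the farthest from the median of Pdk4. With Pdk2 r was 0.26 and fell to -0.10 without those rats, with Dlat it was 0.31 and fell to -0.02, and with Pdha1 it was -0.16 and became -0.41. Within females the largest r in size was 0.44 with Pdp2 and within males -0.54 with Pdha1, with smallest adjusted p values of 0.399 and 0.611. Of the relations of Pdk4 to marker levels over the 23 rats, 0 of 4 passed, with permutation p values adjusted over the 4 of 0.612 or more for r and 0.816 or more for rho. The r was -0.31 with hepatocyte markers (-0.34 in females and -0.37 in males) and 0.071 with adipocyte markers (0.14 and -0.046). With endothelial markers the pooled r of 0.0092 joined values of opposite sign, -0.52 in females and 0.55 in males, and neither these nor their difference was tested.

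Outside the complex, the genes most like Pdk4 were sought by the Pearson r of log2 levels after the group means were taken off, over 23 rats and 11261 genes with a mean of at least 1 CPM. The first was Angptl4 (r = 0.76, rho 0.75, and 0.75 without rats 213 and 214), which encodes a secreted inhibitor of lipoprotein lipase and is known as a target of PPAR factors. It ran from 2.91 CPM in rat 205 to 41.5 CPM in rat 214 among Female Chow rats and from 2.90 CPM in rat 102 to 50.7 CPM in rat 101 among Male HFHS rats. The rats with the highest Pdk4 in their groups were thus not always the highest in Angptl4, as rat 105 had more Pdk4 (620.3 CPM) but less Angptl4 (22.0 CPM) than rat 101.

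Next were Hic2 (r = 0.73, and 0.64 without those rats), a zinc finger repressor counted at 1.11 to 2.25 CPM, and Wdr33 (r = 0.71, and 0.48 without them), a component of the mRNA polyadenylation machinery that varied only 1.33-fold. The fourth was Ucp3 (r = 0.71, rho 0.73, and 0.65 without them), a mitochondrial carrier linked to fatty acid use, at 96.5 to 439 CPM. For comparison, 99% of the candidate genes had an r with Pdk4 below 0.48. These values are a description, since the genes were picked for them, and all 23 points share the scaling of their libraries. Angptl4 itself had 1.54 by diet in males (SE 0.74, adjusted p = 0.632) and -0.14 in females (SE 0.75, adjusted p = 0.984).

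**Figure D4:**
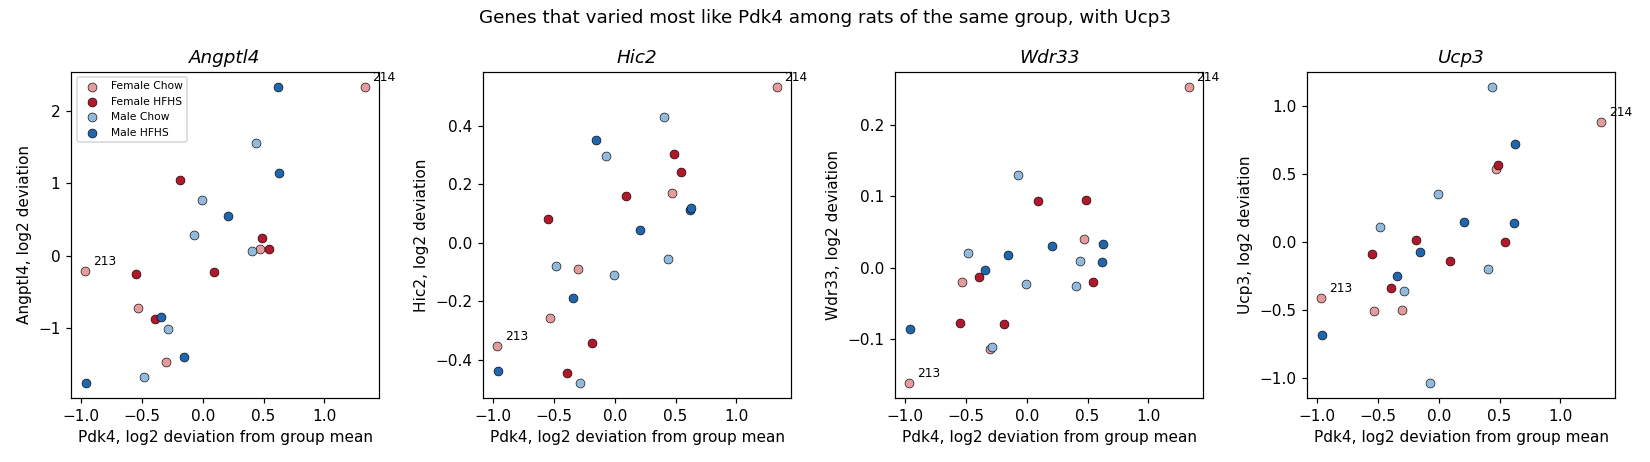
Log2 deviation from the group mean of Angptl4, Hic2, Wdr33 and Ucp3 (y axes, each with its own range) against that of Pdk4 (x axes), with 1 point per rat in the colour of its group and rats 213 and 214 named. The r values were 0.76, 0.73, 0.71 and 0.71, and rat 214 stands at the upper right in each panel.

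The levels of some members followed the slow fibre markers, a relation looked for after the data were seen. Since rats 205 and 111 formed a group of their own by these markers, r was computed over the other 21 rats, as 12 relations with Dld and Pdpr included. Pdk1 was higher in rats with more slow fibre counts (r = 0.70, permutation p = 0.00042, adjusted p = 0.00504, rho = 0.64, permutation p = 0.00266, adjusted p = 0.0319). The r of Pdk1 was 0.56 in the 10 females, 0.92 in the 11 males, and 0.50 without rats 115 and 103, the farthest from the median. The 3 rats of lowest Pdk1 among the males were rats 115 (14.8 CPM), 103 (16.5 CPM) and 111 (16.7 CPM, left out of r), the same 3 that had the lowest slow fibre sums of the males (3605, 5741 and 824 CPM). The females did not match in this way. Their lowest Pdk1 was in rat 213 (15.5 CPM), with a slow fibre sum of 12471 CPM. Rat 205, with the lowest sum (578 CPM), had 16.7 CPM.

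For Pdp2, r was 0.57 (permutation p = 0.00917, adjusted p = 0.0550) and rho 0.27 (permutation p = 0.241, adjusted p = 0.413), with -0.081 in females and 0.67 in males. In the libraries left out of these values, rats 205 and 111, Pdp2 was at 30 and 34 counts. Pdhx had an r of -0.50 (permutation p = 0.0196, adjusted p = 0.0784) and a rho of -0.56 (permutation p = 0.00975, adjusted p = 0.0585), and Pdk2 had -0.29 (permutation p = 0.198, adjusted p = 0.396). Pdk4 had an r of 0.10 (permutation p = 0.652, adjusted p = 0.779). In bulk muscle, fewer cells or fibres of a type and less RNA per fibre cannot be told apart.

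**Figure D5:**
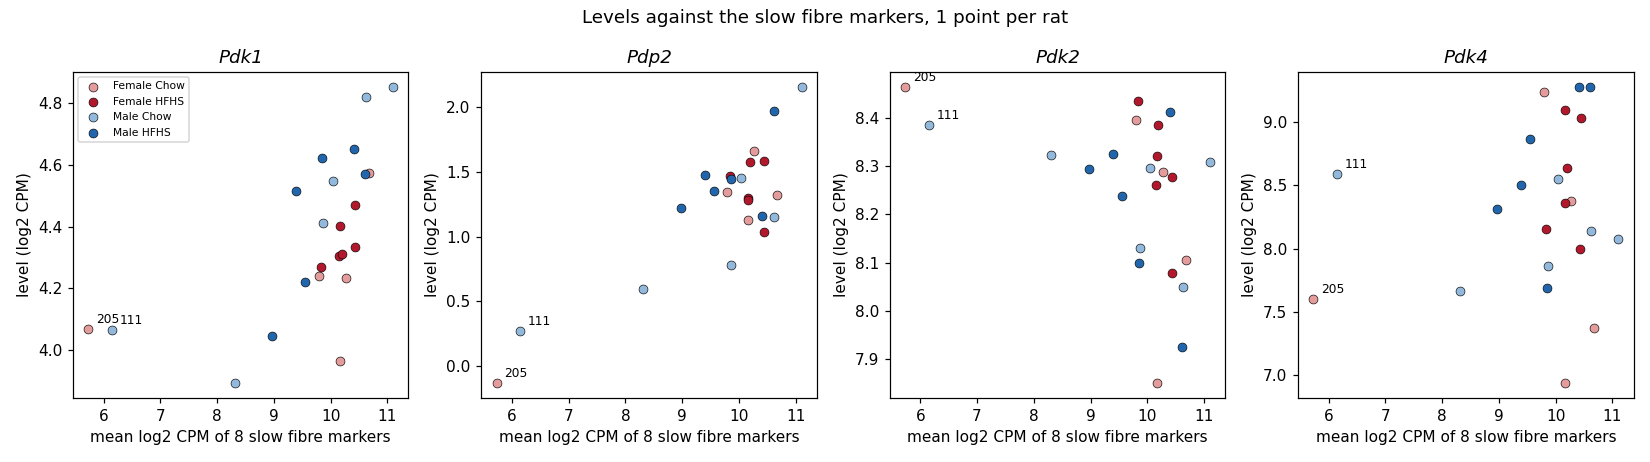
Log2 level in CPM of Pdk1, Pdp2, Pdk2 and Pdk4 (y axes, each with its own range) against the mean log2 CPM of 8 slow fibre markers (x axes), with 1 point per rat in the colour of its group. Rats 205 and 111 stand apart at the left, and over the other 21 rats r was 0.70 for Pdk1, 0.57 for Pdp2, -0.29 for Pdk2 and 0.10 for Pdk4.

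Of the genes around the complex, those that move or consume pyruvate did not pass. Of 15 tested entries for pyruvate transport and other fates of pyruvate, 0 passed by diet or by sex, with a median by sex of -0.09. Of all tested genes, 8.97% passed by sex. Ldha, which makes lactate from pyruvate, had -0.18 by sex (SE 0.07, adjusted p = 0.105), from group means of 3277 ± 345 CPM in Female Chow and 3079 ± 192 CPM in Female HFHS to 2877 ± 519 CPM in Male Chow and 2747 ± 179 CPM in Male HFHS rats (SD). Slc16a1, a carrier of lactate and pyruvate, had 0.23 by sex (SE 0.11, adjusted p = 0.201), and Me1, which makes pyruvate from malate, had -0.18 by diet averaged over the sexes (SE 0.08, adjusted p = 0.463). One of the 2 entries of Pkm, the last enzyme of glycolysis, had -0.23 by sex (SE 0.11, adjusted p = 0.210), and its reads may be shared with the other entry.

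Of 8 tested genes for the lipoate and thiamine cofactors of the complex, 0 passed in any comparison, where 8.97% of all tested genes passed by sex. Lipt1, which attaches lipoate, had 0.19 by sex, Ndufab1, the acyl carrier protein on which lipoate is made, had 0.09 and Slc19a2, a thiamine transporter, had -0.21, with adjusted p values by sex between 0.248 and 0.300. Of 8 tested genes of the sister complexes that act on other oxo acids, 1 passed by sex and 0 by diet. With 8.97% of all tested genes passing by sex, this count does not set the list apart. Dlst, the E2 core of the oxoglutarate complex, was 0.15 higher in males (SE 0.05, adjusted p = 0.0358), from 343 ± 30.6 CPM in Female Chow and 352 ± 22.9 CPM in Female HFHS to 381 ± 17.9 CPM in Male Chow and 391 ± 29.3 CPM in Male HFHS rats (SD). That call was lost without Female Chow rat 214, Male Chow rat 112 or 114, or Male HFHS rat 101 or 105, with adjusted p values of up to 0.0644, and with the hepatocyte marker level as a covariate (0.23, adjusted p = 0.302). Ogdhl had -0.66 by sex at 0.395 CPM on average, Bckdha, of the branched-chain complex, 0.10 and Dhtkd1 -0.09, with adjusted p values of 0.0883, 0.207 and 0.264.

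Of 19 tested entries for factors that are known to regulate transcription of the kinases, 1 was called higher and 1 lower by sex, and 0 by diet. With 8.97% of all tested genes called by sex, this count does not set the list apart. Ppard, the PPAR form of muscle, fell by 0.40 from females to males (SE 0.08, adjusted p = 0.00355), with 33.0 ± 5.19 CPM in Female Chow, 41.7 ± 7.32 CPM in Female HFHS, 28.7 ± 4.58 CPM in Male Chow and 27.6 ± 2.09 CPM in Male HFHS rats (SD). Hif1a, the oxygen-sensitive factor, was 0.25 higher in males (SE 0.07, adjusted p = 0.0203). With the hepatocyte marker level as a covariate neither passed, at -0.35 for Ppard (adjusted p = 0.390) and 0.14 for Hif1a (adjusted p = 0.731). That level goes largely with sex, so the fit cannot tell the 2 apart. Foxo1, a factor held inactive by insulin, had -0.41 (SE 0.15, adjusted p = 0.0948) and Ppargc1b, a coactivator of mitochondrial genes, 0.24 (SE 0.09, adjusted p = 0.0851).

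Of 15 tested PPAR targets of fat oxidation, 1 passed in the averaged diet comparison, where 0.0524% of all tested genes passed. By sex, 1 was called higher and 1 lower, where 8.97% of all tested genes were called. Mlycd, which breaks down malonyl-CoA, was 0.45 higher on the HFHS diet (SE 0.07, adjusted p = 0.00617), with 86.1 ± 10.6 CPM in Female Chow, 117 ± 19.4 CPM in Female HFHS, 82.5 ± 12.0 CPM in Male Chow and 114 ± 10.3 CPM in Male HFHS rats (SD). All 15 had fitted values above 0 by diet averaged over the sexes, with a median of 0.21 against -0.0057 over all genes, and Pdk4 had 0.51. The call of Mlycd was lost with the diets of the sample titles (0.38, adjusted p = 0.425) and with the hepatocyte covariate (0.35, adjusted p = 0.298). The hepatocyte level goes in part with diet, so the fit with it cannot fully tell that level and diet apart. Hadha, of the trifunctional protein of beta-oxidation, had 0.21 (SE 0.05, adjusted p = 0.212) and Acot2, a mitochondrial thioesterase, 0.33 (SE 0.09, adjusted p = 0.275). Over rats of a group, all 15 had a positive r with Pdk4, with a median of 0.24 against 0.0031 over all candidate genes. Only 2 of the 15 lay above 0.48, the value that 99% of candidate genes stayed below. They were Angptl4 and Ucp3, which were already named for their likeness to Pdk4. The 15 genes may vary together, and no test was made.

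By sex, Hadhb, the partner of Hadha, named after its values were seen, was 0.15 higher in males (SE 0.05, adjusted p = 0.0397), a call that did not hold when any 1 of 13 of the 23 rats was left out. It was also lost with the hepatocyte covariate (0.12, adjusted p = 0.642), without the 3 females whose labels conflict (0.16, adjusted p = 0.0647) and without rats 205 and 111 (0.15, adjusted p = 0.0613).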

How the data were processed

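Gastrocnemius RNA of 23 rats was sequenced by the authors from directional poly-A libraries. Trimming was done with fastp, alignment with STAR 2.7.6a against the rn6 genome, and counting in SeqMonk, where the exons of a gene's transcripts were merged. The annotation release and the use of strand in counting are not given in the sources used here. The deposited values are raw counts per gene and rat, without normalization. All columns were mapped to rats through their codes.

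Of the entries, 16 without a gene name were left out (up to 0.000294% of the counts of a rat), and 129 symbols on several entries were kept apart. The tests were run in edgeR 4.0.16 under R 4.3.3 (filterByExpr, TMM, 1 mean for each of 4 groups over all rats, robust quasi-likelihood F tests, Benjamini-Hochberg adjustment over 13365 genes, threshold 0.05). Intervals are at 95% and cover the spread between rats. CPM were computed on TMM-scaled library sizes, with a prior count of 2 before taking log2. Depth sets the precision of low genes, since a count of 10 carries a far larger relative counting error than the counts of Pdk4. Correlations used 100000 permutations, two-sided. The pipeline was tested on simulated data.

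The genes and the lists around them were chosen with earlier results of these data known. Named in each comparison are the 10 genes, Dld and Pdpr, and of each other pathway list up to 4 genes with the smallest p, and for likeness the 3 genes closest to Pdk4. Some results that this rule names are not reported here. Ucp3, Hadhb and the relations to slow fibre markers were chosen once the values had been seen. Alternatives were RLE size factors, a mean count above 0.1, no filter, DESeq2 1.42.0, limma-voom (limma 3.58.1), other labels, covariates, a replicate block, each sex alone, the male diets exchanged and leaving out each rat. Promoter sequences are from RefSeq, and figures were drawn with matplotlib 3.10.9.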

Additional observations from a re-analysis of the deposited data

Results flagged for a closer look

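Within groups, 3 of 48 sets of values (12 genes in 4 groups) held a rat far from the others by its gap to the nearest one, and chance gives about 1 in 20. For Pdha1, Female Chow rat 205 had 504.6 CPM against 438 to 453 CPM in the other 4, and Male Chow rat 111 had 438 CPM against 486 to 503 CPM in the other 5. These are the 2 libraries with the fewest slow fibre counts, and they stood out in opposite directions. For Pdp2, Male HFHS rat 101 had 3.87 CPM against 2.18 to 2.74 CPM in the other 5. The part of the fibre markers in these values was not tested. No gene of the complex differed in its diet response between the sexes by the test of the interaction.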

How the results depend on the processing

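Of the 10 genes, 0 were called by diet or for the interaction under each alternative run, and 1 (Dlat) by sex with DESeq2, limma-voom, without the 3 rats of conflicting labels, with the slow fibre level as covariate and without the 2 rats with the fewest slow fibre counts (the last 2 chosen after the data were seen). Leaving out each rat gave 0 to 1. In the main fit 8.97% of all tested genes were called by sex, so 1 of 10 does not set these genes apart. The share under each of these alternatives is not given here. Over 28 gene results, 894 alternative values kept direction and side of the threshold, 24 newly passed, 29 no longer passed and 20 changed sign, and the cause was not tested.

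All genes called by diet in females were 2, and 1 with RLE, each other filter, either covariate, the replicate block or without rats 205 and 111, 6 with DESeq2, 9 with limma-voom, 0 with each sex alone and 17 with each sex alone in DESeq2. In males they were 3, and 0 with each other filter, the title diets, the hepatocyte covariate, the replicate block or each sex alone, 1 without rats 205 and 111, 24 with DESeq2, 17 with limma-voom and 90 with each sex alone in DESeq2. Averaged over the sexes they were 7, and 55 with DESeq2, 11 with limma-voom, 1 with the hepatocyte covariate, 3 with the replicate block and 0 with the title diets or the male diets exchanged. By sex they were 1199, and 51 with the hepatocyte covariate, which goes largely with sex. For the interaction they were 0, and 1 with DESeq2, 5 with the title diets and 7 with the male diets exchanged. Leaving out 1 rat gave 1 to 3, 0 to 9, 7 to 17, 935 to 1346 and 0 to 1 in the same order, with sex given before the interaction. The highest counts by diet in males and on average were without rat 112, that of the interaction without rat 229, and by sex the lowest was without rat 114 and the highest without rat 111.

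The sign changed for Pdk4 with the title diets (-0.045, diet in females), the hepatocyte covariate (-0.11, sex), without rats 205 and 111 (-0.0053, sex) and with the male diets exchanged (-0.055, diet averaged; -1.02, interaction). It changed for Pdp2 with limma-voom (-0.084, sex), without the 3 conflicting rats (-0.020, sex), with the title diets (-0.0021, diet averaged) and the male diets exchanged (-0.027, diet averaged). It changed for Pdk1 (-0.024) and Pdk2 (0.079) by sex with the hepatocyte covariate, and with the male diets exchanged for Pdk3 (-0.14) and Mlycd (-0.013) by diet averaged. Exchanging the male diets only relabels the male groups of the same fit. The values and counts under it follow from the differences by diet in each sex and are no separate check. Leaving out 1 rat gave -0.063 to 0.0043 for Pdk2 by sex, -0.10 to 0.14 for Pdp2 by sex and -0.37 to 0.30 for the interaction of Pdk4.

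The title numbers shared by rats of different groups showed no clear pairing. Of 32 such pairs 3 had a correlation of deviations above 0.1, and 4 of 23 rats were closest to their own number. The median correlation was -0.029 in these pairs and 0.012 in the other pairs across groups. A weak pairing may not show in these values. With the replicate block, Pdk4 was 0.57 and Dlat 0.15 (adjusted p of 0.549 and 0.108), and by sex Dlst (0.16) and Hadhb (0.15) no longer passed (0.0572 and 0.0583). The 0 correlations of Pdk4 that passed stayed 0 in each sex and without the conflicting rats. Counts of 10 to 57 limit Pdk3.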

Other observations

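Likeness was also described for some of the other genes, chosen after their values were seen, as the r of log2 deviations from group means over 23 rats. The E1 beta gene Pdhb varied most like Atp5c1 (0.88), Cox7b (0.87) and Ndufb5 (0.87), genes of ATP synthase, cytochrome oxidase and complex I, with 0.86, 0.86 and 0.85 without the 2 rats farthest from the mean of Pdhb. Pdha1 was closest to C1galt1 (0.81) and Spag9 (0.79), with Suclg2, a subunit of succinyl-CoA ligase, as the third (0.78). Dlat was closest to Ankrd40 (0.80), with Opa1 (0.79), which fuses the inner mitochondrial membrane, as the second. Both were at 0.61 without 2 rats, and over all 23 rats 99% of candidate genes had an r with Dlat below 0.65. Pdk1 was closest to Prox1 (0.86), a transcription factor of slow fibres, and to Car3 (0.86), a carbonic anhydrase that is abundant in them. Pdk2 was closest to Fry (0.93), Wnk2 (0.92) and Rxra (0.91), the last a partner of PPAR factors, and 99% of candidate genes had an r with Pdk2 below 0.80. Without the 2 rats farthest from the mean of Pdk2 these 3 were 0.88, 0.89 and 0.85. All points share the scaling of their libraries, and no test was made.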
